A study of Oryctolagus cuniculus with 4 samples.

Results

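MYH11 and ACTA2, the genes of the contractile myosin and actin of the blood vessel wall, were followed as 2 of the 21139 genes in 4 spatial expression sections of rabbit supraspinatus muscle. They were taken by name, as the features MYH11 (ENSOCUG00000013450) and ACTA2 (ENSOCUG00000008193). The Visium assay captures polyadenylated RNA from a tissue section on printed spots, and each counted molecule carries a unique molecular identifier (UMI). A spot covers a small region that can hold several cells of different types, so it is not a cell.

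All muscles came from skeletally mature female New Zealand White rabbits of 6 months of age. The fresh healthy section (1950 spots) came from healthy muscle without tenotomy that was not kept in storage, and the stored healthy section (2440 spots) from healthy muscle kept frozen for 6 years. The 2-week section (854 spots) and the 16-week section (1726 spots) came from muscles whose supraspinatus tendon had been cut 2 or 16 weeks before harvest, and these muscles were also stored for 6 years. The titles of the stored healthy and the 16-week section share a number, followed by R and L. They were read as the right and the left muscle of the same animal, which the labels do not state. On this reading, the healthy side belonged to an animal with a tear on the other side. There was 1 section per condition, hence differences between conditions are differences between single sections, no test was possible, and all intervals are 95% intervals for counting error only.

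MYH11 encodes the smooth muscle myosin heavy chain, the motor of the contractile apparatus, and is known as one of the more specific genes of mature smooth muscle. ACTA2 encodes smooth muscle alpha-actin, which smooth muscle cells of arteries and veins hold in large amounts together with MYH11. ACTA2 is known outside the vessel wall as well: activated fibroblasts that contract scar tissue, called myofibroblasts, make it, and developing and regenerating muscle fibers can make it for a time. The question was therefore where ACTA2 was found without MYH11. COL1A1 (ENSOCUG00000012881), which encodes a chain of type I collagen, was used for fibroblasts, and MYH8 (ENSOCUG00000010229), the perinatal myosin heavy chain, for regenerating fibers.

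Total UMIs lay between 4079313 and 12536450 per section, and the median spot had 3589.5 UMIs in fresh healthy muscle, 5195 in stored healthy muscle, 4588 at 2 weeks and 2090 at 16 weeks. Mitochondrial genes took 49.3% and 49.2% of the UMIs in the healthy sections and 33.8% and 34.6% in the 2-week and 16-week sections. The same barcode marks the same position on every slide area, so 512 of 2931 barcodes occurred in all sections; no pair of sections shared a barcode with 10 or more ACTA2 UMIs.

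Both genes were rare. MYH11 gave 260 UMIs in fresh healthy muscle, 382 in stored healthy muscle, 334 at 2 weeks and 420 at 16 weeks. Relative to 10000 UMIs, this was 0.370 (interval 0.327 to 0.418), 0.305 (0.275 to 0.337), 0.819 (0.733 to 0.911) and 0.885 (0.803 to 0.974). The 2 tenotomy sections lay above the healthy sections, and their own intervals overlapped.

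ACTA2 gave 982, 1465, 1025 and 1545 UMIs in the same order. Its level was 1.40 per 10000 UMIs (1.31 to 1.49) in fresh healthy muscle, 1.17 (1.11 to 1.23) in stored healthy muscle, 2.51 (2.36 to 2.67) at 2 weeks and 3.26 (3.10 to 3.42) at 16 weeks. None of these intervals overlapped. In the count table, ACTA2 gave 3.78, 3.84, 3.07 and 3.68 UMIs per MYH11 UMI, with intervals of 3.29 to 4.35, 3.42 to 4.30, 2.71 to 3.48 and 3.30 to 4.11. The ratio was lowest at 2 weeks, where its interval still overlapped those of the other sections. It is a ratio of UMIs, not of transcripts, since capture can differ between genes.

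At least 1 MYH11 UMI was found in 129 spots of the fresh healthy section (6.62%, interval 5.55 to 7.81), 201 of the stored healthy (8.24%, 7.18 to 9.40), 143 of the 2-week (16.7%, 14.3 to 19.4) and 201 of the 16-week section (11.6%, 10.2 to 13.3). ACTA2 was found in 351 (18.0%, 16.3 to 19.8), 630 (25.8%, 24.1 to 27.6), 331 (38.8%, 35.5 to 42.1) and 587 spots (34.0%, 31.8 to 36.3). By these shares the 2-week section ranked first for both genes. Shares depend on depth, and at an equal depth of 1000 UMIs per spot the expected shares were 2.46%, 2.37%, 6.46% and 6.94% for MYH11 and 7.41%, 8.31%, 14.9% and 22.1% for ACTA2, so that the 16-week section ranked first for both.

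**Figure D1:**
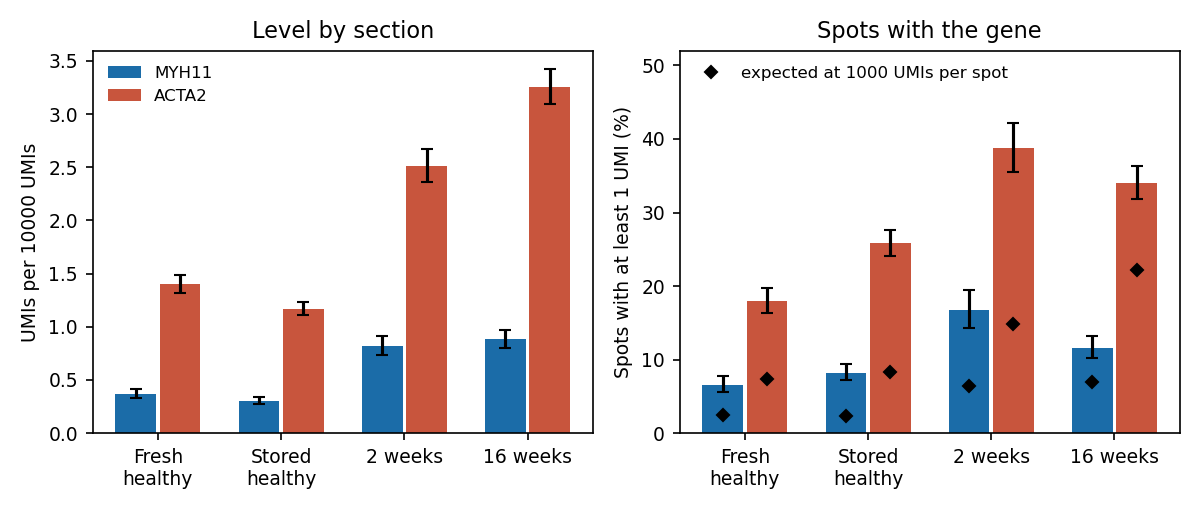
UMIs of MYH11 (blue) and ACTA2 (red) per 10000 UMIs of the section (left) and the percentage of spots with at least 1 UMI (right) in the 4 sections, with 95% intervals for counting error as error bars. Diamonds give the expected percentage at 1000 UMIs per spot, at which the 16-week section had the highest values, 6.94% for MYH11 and 22.1% for ACTA2.

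Between the healthy sections, the genes differed little. The stored healthy section had a lower level than the fresh one, with a log2 ratio of -0.28 (interval -0.51 to -0.05) for MYH11 and -0.26 (-0.38 to -0.14) for ACTA2, while the median gene stood at -0.08 and 7.94% of genes were at least 2-fold higher. COL1A1 and MYH8 were 4.92-fold and 5.89-fold higher in the stored section in the same comparison. The vessel wall genes thus did not share the higher level of the collagen and perinatal myosin genes in the stored muscle.

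Against the stored healthy section, both genes were higher after tenotomy. At 2 weeks, MYH11 was 2.69-fold higher (log2 ratio 1.43, 1.21 to 1.64) and ACTA2 2.15-fold (1.10, 0.99 to 1.22). At 16 weeks, MYH11 was 2.90-fold higher (1.54, 1.34 to 1.74) and ACTA2 2.79-fold (1.48, 1.38 to 1.58). These comparisons share the stored healthy section. Much of the transcriptome lay above that section too: among genes with at least 50 UMIs in the pair of sections, 24.2% were at least 2-fold higher at 2 weeks and 43.9% at 16 weeks, and the median gene stood at 0.59 and 0.89.

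Relative to the median gene, the 2-week log2 ratios were 0.83 for MYH11 and 0.51 for ACTA2, and the 16-week ratios 0.65 and 0.59. Of the genes measured, 91.5% stood below MYH11 and 80.6% below ACTA2 at 2 weeks, and 80.7% and 78.3% at 16 weeks. Both genes thus passed 2-fold in both comparisons on the scale of all UMIs, and none of the 4 ratios reached 2-fold relative to the median gene. Without mitochondrial genes in the totals, ACTA2 at 2 weeks had a log2 ratio of 0.72, under 2-fold, and the other 3 ratios stayed above it. Between the 16-week and the 2-week section, ACTA2 differed by 0.37 (0.26 to 0.49) and MYH11 by 0.11 (-0.10 to 0.32), which turned to 0.06 and -0.20 relative to the median gene at 0.31; 15.9% of genes were at least 2-fold higher. In bulk counts such as these sums over a section, more smooth muscle cells and more RNA per cell cannot be told apart.

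Other genes of smooth muscle gave a mixed picture. Of a list of 12, 9 have a feature of that name here, while the classical markers TAGLN, CNN1 and MYLK have none, and MYOCD, the smooth muscle coactivator, had 0, 0, 0 and 1 UMI. Of the 7 list genes with enough UMIs, 1 was at least 2-fold higher at 2 weeks (ACTG2, log2 ratio 1.15) and 2 at 16 weeks (PPP1R14A, 1.86, and MYL9, 1.39), against 24.2% and 43.9% of all genes. The list medians were 0.55 and 0.98, beside 0.59 and 0.89 for all genes. ACTG2 encodes enteric smooth muscle actin, MYL9 a regulatory light chain of smooth muscle myosin, and PPP1R14A an inhibitor of myosin phosphatase.

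The pericyte and endothelial lists had few measured genes. None of the 3 measured pericyte genes and none of the 3 endothelial genes was at least 2-fold higher at 2 weeks, and none of 4 and 3 at 16 weeks, beside 24.2% and 43.9% of all genes. With so few genes, a count of 0 at 2 weeks is near what that share gives. The pericyte list had a median of -0.44 at 2 weeks and 0.57 at 16 weeks, and the endothelial list 0.47 and 0.40, all below the median of all genes. VWF, the von Willebrand factor of endothelial cells, had log2 ratios of 0.33 and 0.40, below the median gene in both. PECAM1, an adhesion molecule of endothelial cells, stood at 0.47 and 0.74. Of the pericyte genes, ABCC9, a subunit of a potassium channel, stood at 0.28 and 0.47, COX4I2 at -0.70 and -0.50, and HIGD1B at -0.44 and 0.67.

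A small number of spots held a large part of both genes. The 10 spots with most MYH11 UMIs held 37.7% of all MYH11 UMIs in fresh healthy muscle (interval 31.8 to 43.9), 28.8% in stored healthy muscle (24.3 to 33.6), 40.4% at 2 weeks (35.1 to 45.9) and 36.7% at 16 weeks (32.0 to 41.5). The same spots held between 0.494% and 1.08% of all UMIs. For ACTA2 the 10 top spots held 31.8%, 16.5%, 31.9% and 16.2%. ACTA2 was thus less concentrated than MYH11 in the stored healthy and 16-week sections.

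The single richest spot had 37, 30, 28 and 52 MYH11 UMIs in the order of fresh healthy, stored healthy, 2-week and 16-week section. For ACTA2 it had 98, 62, 60 and 60 UMIs. By contrast, between 64.3% and 72.1% of the MYH11 spots and between 52.3% and 61.4% of the ACTA2 spots of a section had a single UMI of the gene. It took 20, 34, 17 and 26 spots to reach 50% of the MYH11 UMIs and 29, 93, 28 and 88 spots for ACTA2. In the 16-week section these were 1.51% of all spots for MYH11 and 5.10% for ACTA2.

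**Figure D2:**
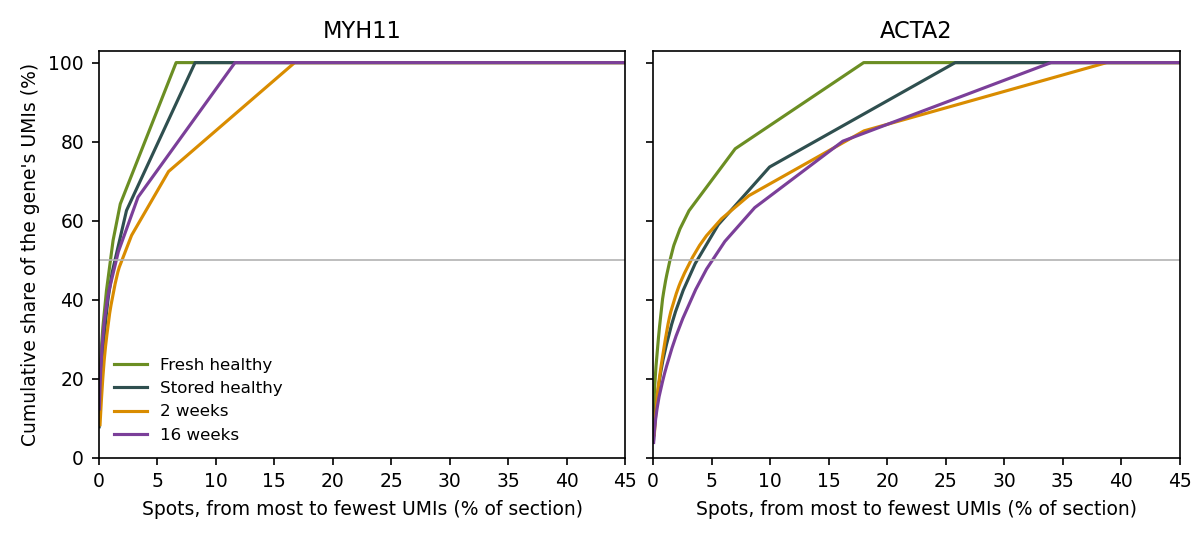
Cumulative percentage of the UMIs of MYH11 (left) and ACTA2 (right) over the spots of each section, ranked from most to fewest UMIs of the gene and given as a percentage of all spots. The grey line marks 50%, which MYH11 reached within 2% of the spots in every section and ACTA2 within 1.49% in fresh healthy muscle and 5.10% at 16 weeks.

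ACTA2 was found more often in spots with MYH11 than in other spots, in every section. Of the spots with MYH11, 77 of 129 in the fresh healthy section also had ACTA2 (59.7%, interval 50.7 to 68.2), 118 of 201 in stored healthy muscle (58.7%, 51.6 to 65.6), 87 of 143 at 2 weeks (60.8%, 52.3 to 68.9) and 118 of 201 at 16 weeks (58.7%, 51.6 to 65.6). In spots without MYH11, the shares with ACTA2 were 15.0% (13.4 to 16.8), 22.9% (21.1 to 24.7), 34.3% (30.8 to 37.9) and 30.8% (28.4 to 33.1). At unequal depth, the share within MYH11 spots was thus nearly level across the sections while the share in the other spots was higher in the 2-week and 16-week sections. Expected at 1000 UMIs per spot, ACTA2 accompanied MYH11 in 44.9%, 40.0%, 44.8% and 54.8% of MYH11 spots, against 6.46%, 7.54%, 12.8% and 19.7% of other spots. At this equal depth the share within MYH11 spots was not level and was highest at 16 weeks.

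The same was read within depth, with the spots of each section divided into 3 groups of nearly equal size by their UMIs. ACTA2 was more frequent beside MYH11 in all 12 groups. The gap was smallest in the middle group of the 2-week section, with 54.5% (38.8 to 69.6) against 38.8% (32.6 to 45.2), and these intervals overlapped. The highest group of the fresh healthy section had the widest gap in share, 75.9% (62.4 to 86.5) against 22.8% (19.5 to 26.4).

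The converse share was low in every section. Of the spots with ACTA2, 21.9% (17.7 to 26.6), 18.7% (15.8 to 22.0), 26.3% (21.6 to 31.4) and 20.1% (16.9 to 23.6) had MYH11. Most ACTA2 spots, namely 274, 512, 244 and 469, therefore had ACTA2 and no MYH11 UMI. The spots with both genes, 3.95% to 10.2% of a section, held 74.3% to 77.9% of the MYH11 UMIs in every section. They held 57.9%, 41.0%, 56.7% and 41.4% of the ACTA2 UMIs, so that in the stored healthy and 16-week sections the larger part of ACTA2 lay in spots without a MYH11 UMI.

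**Figure D3:**
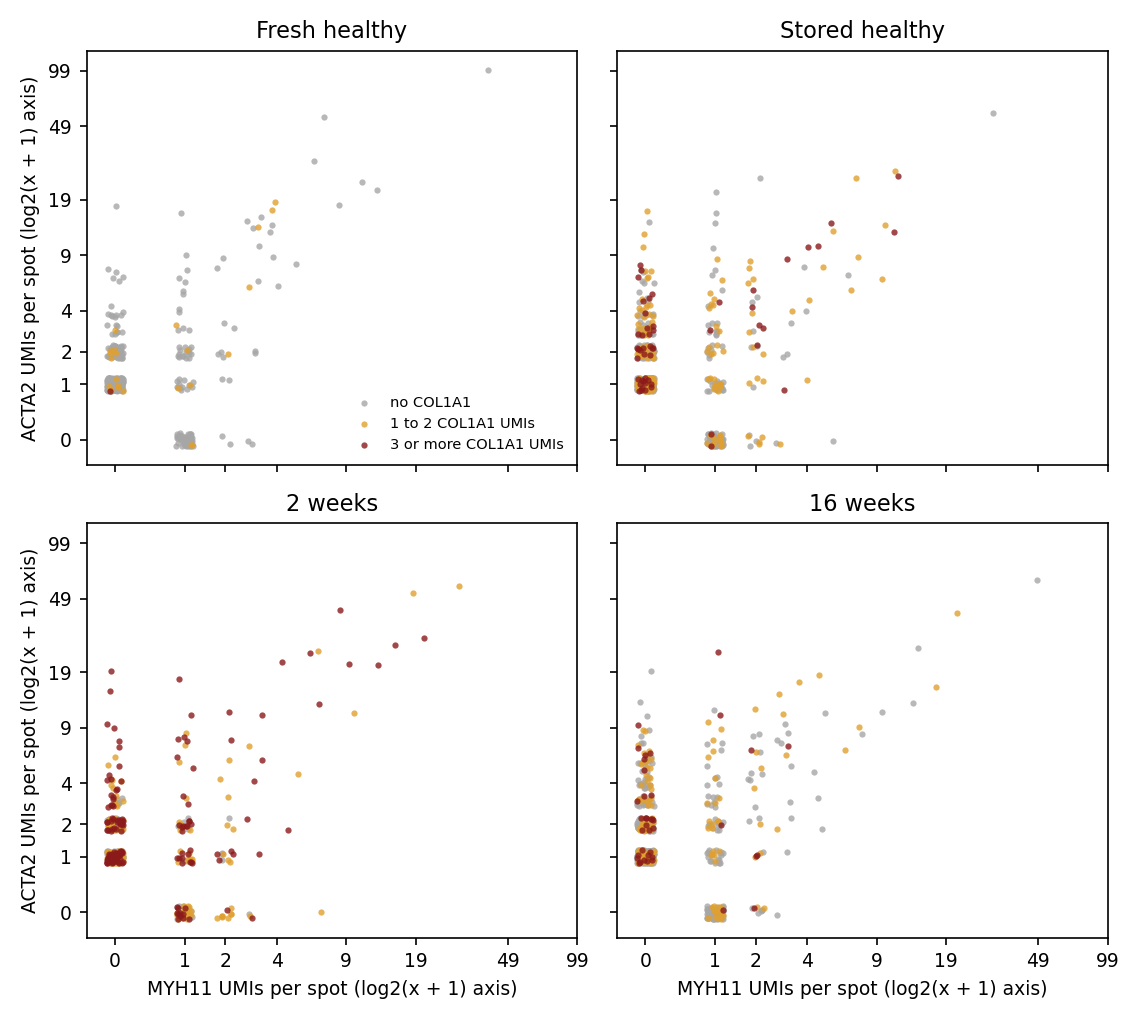
ACTA2 UMIs (vertical) against MYH11 UMIs (horizontal) for each spot with at least 1 UMI of either gene, by section, on log2(x + 1) axes with small random offsets to separate points; colors give the COL1A1 UMIs of the spot. The spots with most of 1 gene also had the other, as in the 16-week spot with 60 ACTA2 and 52 MYH11 UMIs, and at 2 weeks most spots with 10 or more ACTA2 UMIs had 3 or more COL1A1 UMIs.

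A spot without a MYH11 UMI cannot be taken to lack MYH11, since ACTA2 gave several UMIs for each of MYH11 and most ACTA2 spots had a single UMI. The share of spots with MYH11 was therefore read along the number of ACTA2 UMIs. It was 3.25%, 4.59%, 10.7% and 7.29% in spots without ACTA2 and 7.94%, 9.30%, 16.9% and 9.45% in those with 1 ACTA2 UMI. With 5 to 9 ACTA2 UMIs it was 72.2%, 53.5%, 65.0% and 46.7%, and with 10 or more 94.1% (71.3 to 99.9), 78.9% (54.4 to 93.9), 84.2% (60.4 to 96.6) and 78.9% (54.4 to 93.9). Spots rich in ACTA2 were thus in the main spots with MYH11 in all sections, and their median depth (4182 UMIs in fresh healthy muscle, 5952 in stored healthy muscle, 4111 at 2 weeks and 2652 at 16 weeks) was near that of other ACTA2 spots.

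The exceptions were few. Among spots with 10 or more ACTA2 UMIs, 1 of 17 in fresh healthy muscle, 4 of 19 in stored healthy muscle, 3 of 19 at 2 weeks and 4 of 19 at 16 weeks had no MYH11. The 3 exceptions at 2 weeks had 20, 15 and 10 ACTA2 UMIs, beside 13, 7 and 27 COL1A1 UMIs, 80, 110 and 166 UMIs of COL3A1, which encodes type III collagen, and 10, 0 and 12 of VWF. All 19 spots with 10 or more ACTA2 UMIs had COL1A1 at 2 weeks, so its presence was not particular to the exceptions. The 4 exceptions at 16 weeks, with 20, 12, 11 and 10 ACTA2 UMIs, had 0, 0, 0 and 3 COL1A1 UMIs, 7, 5, 46 and 19 of COL3A1 and 1, 1, 6 and 3 of VWF. The 4 of the stored healthy section had 16, 14, 12 and 10 ACTA2 UMIs beside 2, 0, 1 and 1 COL1A1 UMIs, 18, 14, 16 and 7 of COL3A1 and 9, 25, 5 and 6 of VWF. MYH8 gave a single UMI in 1 of these spots at 2 weeks and none in the others.

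**Figure D4:**
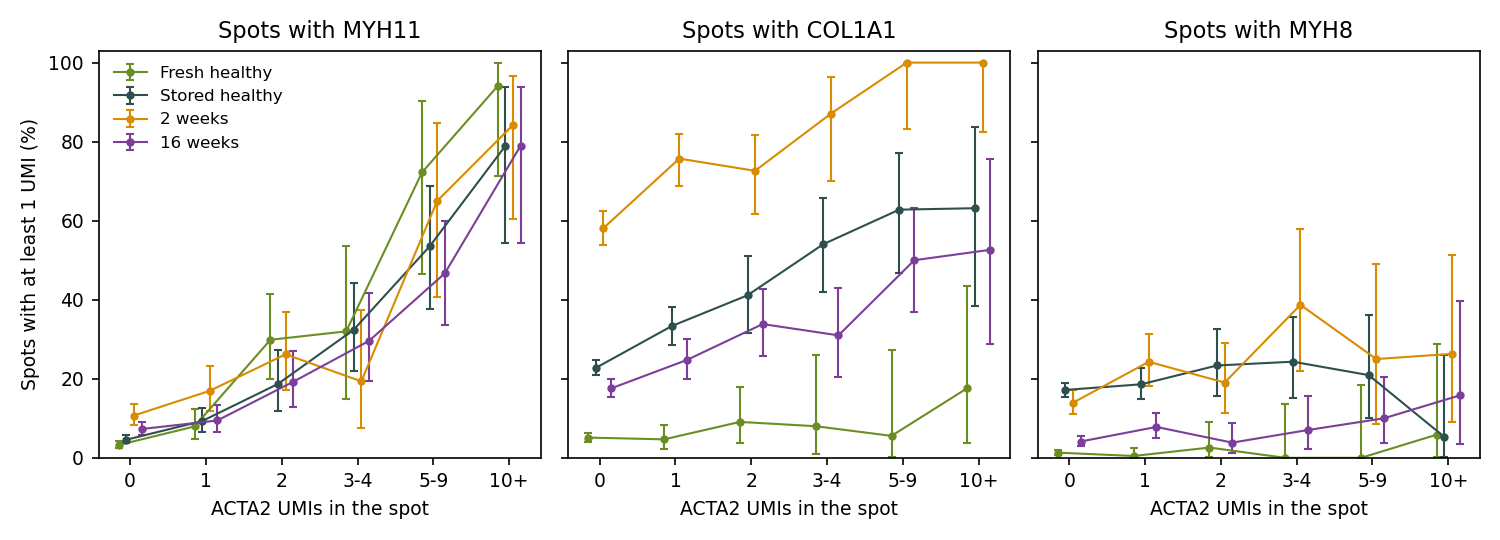
Percentage of spots with at least 1 UMI of MYH11, COL1A1 or MYH8 (panels) by the number of ACTA2 UMIs in the spot, for the 4 sections, with exact binomial 95% intervals. MYH11 climbed to between 78.9% and 94.1% in the spots with 10 or more ACTA2 UMIs, COL1A1 reached 100% at 2 weeks, and MYH8 stayed under 40% in every group.

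COL1A1 accompanied ACTA2 in 3 of the 4 sections. In spots with ACTA2 and no MYH11, against spots with neither gene, the COL1A1 level had a log2 ratio of 0.70 (0.51 to 0.89) in stored healthy muscle, 0.39 (0.24 to 0.54) at 2 weeks and 0.85 (0.61 to 1.10) at 16 weeks. In the fresh healthy section, with 128 COL1A1 UMIs in all, it was -0.12 (-0.92 to 0.56). The share of spots with COL1A1 was 37.3%, 75.0% and 29.2% in the ACTA2-only spots of the stored healthy, 2-week and 16-week sections and 22.7%, 55.7% and 17.2% in the spots with neither. ACTA2-only spots were deeper, with medians of 5653.5 against 5010 UMIs, 4850.5 against 4368 and 2145 against 1898. Expected at 1000 UMIs per spot, the shares were 10.5% against 6.23%, 33.9% against 25.4% and 18.4% against 9.88%.

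Spots with both vessel wall genes were not poorer in collagen. Their COL1A1 log2 ratio against spots with neither was 1.40 (1.12 to 1.67) in stored healthy muscle, 1.76 (1.60 to 1.92) at 2 weeks and 0.80 (0.39 to 1.17) at 16 weeks. At 2 weeks 1 spot held 138 of the 577 COL1A1 UMIs of the spots with both genes, and the ratio without it was not computed. The share of spots with COL1A1 there was 89.7% (81.3 to 95.2) with both genes, 75.0% with ACTA2 only and 55.7% with neither. At 2 weeks and in the stored healthy section COL1A1 was thus higher beside both genes than beside ACTA2 alone, and at 16 weeks the ratios were alike. Spots with MYH11 and no ACTA2 lay near the spots with neither, with 0.11 (-0.44 to 0.58), 0.23 (-0.07 to 0.51) and -0.24 (-0.89 to 0.31) in the same order.

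Read in the other direction, the ACTA2 level was higher in spots with COL1A1. At 16 weeks it was 2.58 per 10000 UMIs (2.41 to 2.75) in spots with no COL1A1 UMI, 4.89 (4.39 to 5.43) with 1, 5.69 (4.71 to 6.81) with 2, 9.46 (7.73 to 11.5) with 3 to 4 and 5.63 (3.74 to 8.14) with 5 or more. The MYH11 level of the same spots was 0.759 (0.672 to 0.853), 1.49 (1.22 to 1.80), 0.956 (0.584 to 1.48), 1.19 (0.636 to 2.04) and 0.402 (0.0487 to 1.45). Both genes had lower levels with 5 or more COL1A1 UMIs than with 3 to 4, and the MYH11 intervals of the spots with 2 or more overlapped that of the spots with none.

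The balance of the 2 genes differed by COL1A1 at 16 weeks with a minimum of 3 COL1A1 UMIs, but not clearly with the main minimum of 1. COL1A1 was sparse there, found in 22.1% of spots against 77.8% for COL1A2 and 90.3% for COL3A1. Spots without COL1A1 could thus hold other collagen RNA, and a balance by COL1A2 or COL3A1 was not computed. In the 66 spots with 3 or more COL1A1 UMIs, 131 ACTA2 and 15 MYH11 UMIs were counted, or 8.73 ACTA2 UMIs per MYH11 UMI, against 3.49 in the other spots (log2 ratio of the balance 1.28, interval 0.53 to 2.22). ACTA2 was found in 37 of these spots (56.1%, 43.3 to 68.3) against 33.1% of the others (30.9 to 35.5), and MYH11 in 9 (13.6%, 6.43 to 24.3) against 11.6% (10.1 to 13.2). Depth did not differ much, with medians of 1892 and 2096.5 UMIs. A single spot with 24 ACTA2 UMIs and 1 MYH11 UMI was the richest of the group, and without it the log2 ratio was 1.09. With the main minimum of 1 COL1A1 UMI, chosen so that every section had spots, the log2 ratio was only 0.31 (-0.02 to 0.65), an interval that included 0. It was 0.11 without the spot of the section with most ACTA2 UMIs.

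The 2-week section did not show a shift of that size. Its 245 spots with 3 or more COL1A1 UMIs had 553 ACTA2 and 158 MYH11 UMIs, or 3.50 per MYH11 UMI against 2.68 in the others (0.38, 0.02 to 0.75). Both genes were higher there, ACTA2 by 1.14 (0.96 to 1.32) and MYH11 by 0.75 (0.43 to 1.07) on the log2 scale. With a minimum of 1 COL1A1 UMI the balance was -0.30 (-1.01 to 0.34). In the stored healthy section the balance was 3.54 against 3.89 (-0.14, -0.61 to 0.35) at 3 or more and -0.22 (-0.55 to 0.12) at 1 or more COL1A1 UMIs. The intervals of the 2-week and 16-week sections overlapped, and the difference between them was not tested. The fresh healthy section had 5 spots with 3 or more COL1A1 UMIs, which held 1 ACTA2 UMI and gave no balance.

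**Figure D5:**
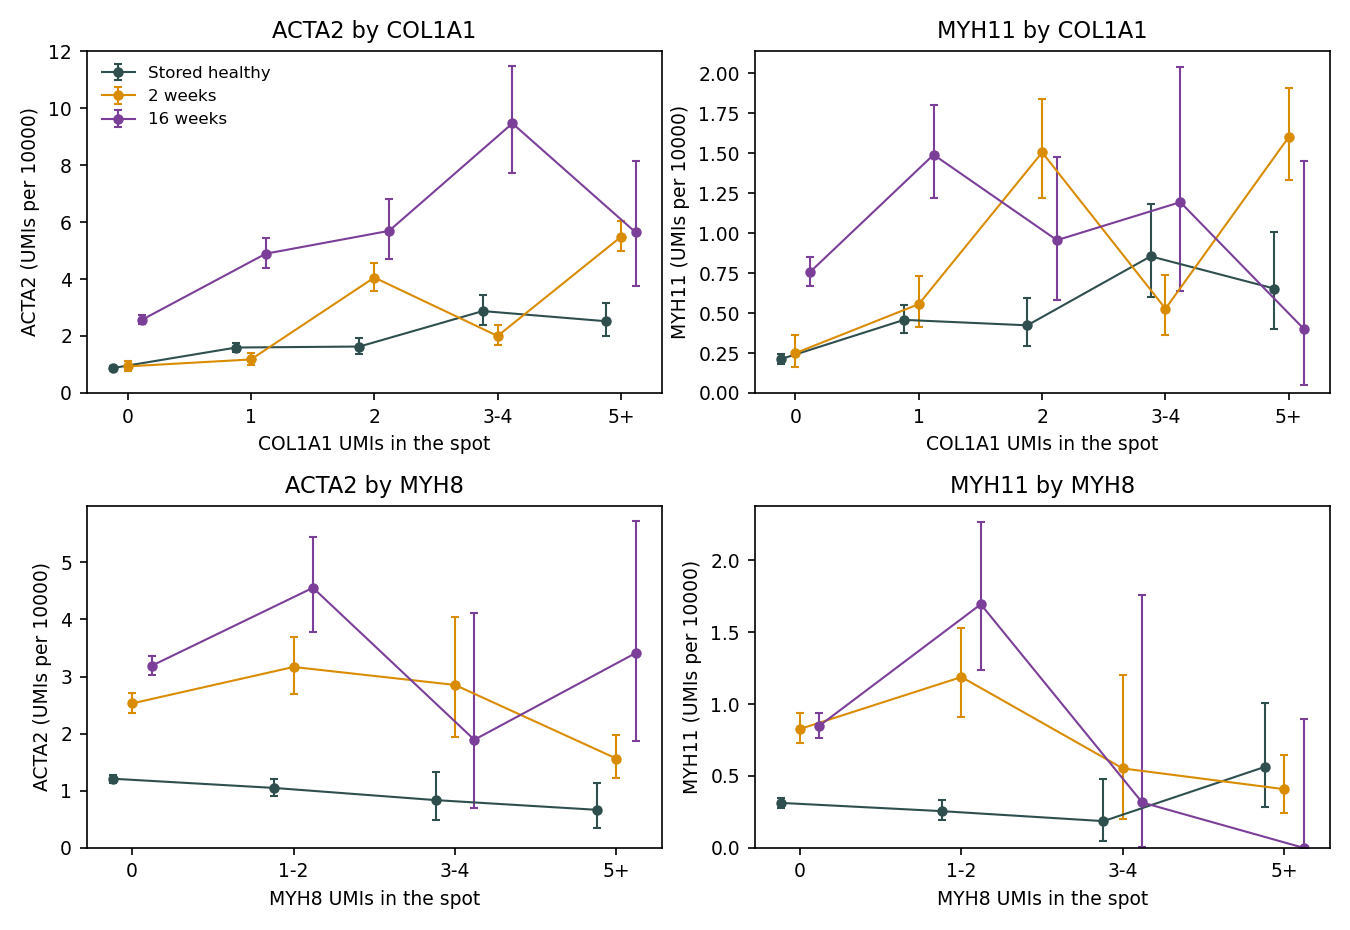
Level of ACTA2 (left) and MYH11 (right), in UMIs per 10000 UMIs, by the number of COL1A1 UMIs (top) and MYH8 UMIs (bottom) in the spot, with 95% intervals for counting error; the fresh healthy section is left out because it had few such spots. At 16 weeks ACTA2 stood at 2.58 without COL1A1 and 9.46 at 3 to 4 COL1A1 UMIs while MYH11 stood at 0.759 and 1.19, and with 5 or more MYH8 UMIs ACTA2 stood at 1.56 against 2.53 without at 2 weeks and at 3.41 against 3.19 at 16 weeks.

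The ACTA2 level beside MYH8 depended on the section and on the minimum of MYH8 UMIs. At 2 weeks, where MYH8 was most abundant, the 59 spots with 3 or more MYH8 UMIs had an ACTA2 level of 1.82 per 10000 UMIs against 2.62 in the other spots, a log2 ratio of -0.52 (-0.84 to -0.23). MYH11 was lower there as well, by -0.98 (-1.67 to -0.41). In the stored healthy section, ACTA2 stood at 0.755 against 1.18 (-0.63, -1.21 to -0.14). At 16 weeks it stood at 2.75 against 3.26 (-0.21, -0.96 to 0.38), with 14 such spots holding 20 ACTA2 UMIs and 1 MYH11 UMI. These spots were deeper than the others, with medians of 7720 against 4465 UMIs at 2 weeks and 5361.5 against 2062 at 16 weeks. At 2 weeks ACTA2 was found in 49.2% of them (35.9 to 62.5) against 38.0% (34.6 to 41.5). With at least 1 MYH8 UMI, the log2 ratio of ACTA2 was 1.15 (0.53 to 1.67) in the fresh healthy section, -0.27 (-0.48 to -0.08) in the stored healthy, -0.04 (-0.25 to 0.17) at 2 weeks and 0.39 (0.13 to 0.64) at 16 weeks. The 25 such spots of the fresh healthy section held 28 ACTA2 UMIs, found in 4 of them (16.0%, against 18.0% of the other spots). A single spot with 1 MYH8 UMI held 23 of these ACTA2 UMIs and 10 MYH11 UMIs. The ratio of that section thus rested on 1 spot, and its value without that spot was not computed.

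The single spots richest in MYH8 differed between sections. The spot with 151 MYH8 UMIs at 2 weeks had 1 ACTA2 UMI, and the next, with 59 MYH8 UMIs, had none. At 16 weeks the spots with 37 and 29 MYH8 UMIs had 6 and 5 ACTA2 UMIs and no MYH11. In the stored healthy section the spots with 83 and 53 MYH8 UMIs had 0 and 1 ACTA2 UMI. Across all spots, the correlation of the log levels of ACTA2 and MYH8 was 0.02, -0.01, 0.04 and 0.04, and MYH8 ranked between 873 and 2466 among the genes compared with ACTA2.

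Presence of MYH8 beside ACTA2 gave another picture at low counts. In the 2-week section, 23.4% (18.2 to 29.2) of the ACTA2-only spots had MYH8, against 13.5% (10.5 to 16.9) of the spots with neither vessel wall gene, and the spots with both genes reached 27.6% (18.5 to 38.2). At 16 weeks the shares were 7.25% (5.07 to 9.98), 4.17% (3.04 to 5.55) and 7.63% (3.55 to 14.0). Expected at 1000 UMIs per spot, the ACTA2-only and neither shares were 9.49% and 6.28% at 2 weeks and 3.39% and 2.79% at 16 weeks. In the stored healthy section they were 4.51% and 5.48%, with ACTA2-only spots lower.

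The MYH8 level in ACTA2-only spots rested on few spots. Its log2 ratio against spots with neither gene was 1.09 (0.89 to 1.29) at 2 weeks and 1.66 (1.23 to 2.10) at 16 weeks, and it was 0.59 and 1.12 without the spot with most MYH8 UMIs. Without the 3 spots with most MYH8 UMIs it was 0.62 and 0.19. In the fresh healthy section, 1 spot with 45 of the 47 MYH8 UMIs of the ACTA2-only spots gave a ratio of 2.52, which turned to -1.72 without it. The stored healthy section had -0.13 (-0.38 to 0.10).

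MYL4 (ENSOCUG00000010829), the embryonic light chain, was higher in ACTA2-only spots than in spots with neither by 1.15 (0.86 to 1.43) at 16 weeks and 1.36 (0.74 to 2.00) at 2 weeks, and in spots with both by 0.97 (0.50 to 1.41) and 1.07 (0.10 to 1.93). The MYH8 ratio in spots with both genes was 0.45 (-0.57 to 1.27) at 16 weeks and 0.08 (-0.29 to 0.42) at 2 weeks, and these intervals included 0. The share of spots with MYL4 at 16 weeks was 11.3% (8.58 to 14.5) in ACTA2-only spots and 10.3% (8.55 to 12.3) in spots with neither, so the higher level lay with spots of many UMIs, up to 29 against 15 in a spot. At 2 weeks, 1 spot held 28 of the 59 MYL4 UMIs of the ACTA2-only spots, and the ratio without it was not computed. The shares of spots with MYL4 were 8.20% (5.08 to 12.4) there and 3.21% (1.81 to 5.24) with neither. ACTC1, cardiac alpha-actin, which fetal and regenerating fibers also make, had log2 ratios in ACTA2-only spots of 0.87 in fresh healthy muscle, 0.60 in stored healthy muscle, 0.82 at 2 weeks and 0.04 at 16 weeks. Of 14 genes listed for regenerating fibers, these among them, 8 have a feature here. Of those measured, 1 of 2, 0 of 6, 2 of 4 and 2 of 5 were at least 2-fold higher in ACTA2-only spots. Of all genes, 0.85%, 1.54%, 0.886% and 2.16% were. The list medians were 1.70, 0.50, 0.95 and 0.04, beside 0.05, 0.14, 0.06 and 0.17 for all genes. At 16 weeks the list summed to 21.6 per 10000 UMIs with neither gene, 23.5 with ACTA2 only and 19.5 with both. At 2 weeks it summed to 4.52, 8.46 and 7.17. Actin genes are close in coding sequence and neither ACTA1, ACTB nor ACTG1 has a feature of that name here, so whether reads of other actins were counted for ACTA2 was not tested.

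ACTA2-only spots held more of some other smooth muscle genes. A gene was measured if it had at least 50 UMIs in the pair of classes together. A sparse gene could thus be measured through the class where it was high, and the counts are a description only. Of the list genes measured, 1 of 4 in fresh healthy muscle, 1 of 5 in stored healthy muscle, 1 of 4 at 2 weeks and 2 of 5 at 16 weeks were at least 2-fold higher there than in spots with neither gene, while 0.85%, 1.54%, 0.886% and 2.16% of all genes were. ACTG2 was the gene in both healthy sections (log2 ratios 1.69 and 1.52), MYL9 at 2 weeks (1.36), and ACTG2 and MYL9 at 16 weeks (1.63 and 1.24). The list medians in ACTA2-only spots were 0.17, 0.10, 0.07 and 0.79 in the 4 sections, beside 0.05, 0.14, 0.06 and 0.17 for all genes. In stored healthy muscle the list median thus lay below that of all genes, and at 2 weeks near it. The summed level of the list was 2.24 per 10000 UMIs (2.00 to 2.51) at 16 weeks, between 1.55 (1.40 to 1.70) in spots with neither gene and 5.29 (4.57 to 6.10) in spots with both. At 2 weeks these levels were 1.86 (1.63 to 2.10), 1.52 (1.35 to 1.70) and 4.55 (3.95 to 5.22).

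Spots with both genes were rich in some of the smooth muscle genes. Of the list genes measured, 3 of 4 at 16 weeks, 2 of 3 at 2 weeks and 2 of 5 in each healthy section were at least 2-fold higher than in spots with neither, while 13.4%, 10.4%, 14.0% (stored) and 10.8% (fresh) of all genes were. The same limit holds for these counts, since sparse genes could pass the minimum through the spots with both genes. ACTG2, with 145, 172, 124 and 100 UMIs in the 4 whole sections, had log2 ratios of 5.26, 3.38, 3.90 and 3.65. MYL9 had 3.76 in fresh healthy muscle, 3.03 in stored healthy muscle and 2.69 at 16 weeks. SMTN, which encodes smoothelin, had 0.85, 0.08, 1.11 and 0.04, and LMOD1, which encodes a leiomodin, 0.74, 0.10, 0.61 and 1.81. The list medians were 0.85, 0.10, 1.11 and 2.25, beside 0.23, 0.34, 0.23 and 0.40 for all genes, so in stored healthy muscle the list median lay below that of all genes.

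The fibroblast list, which includes COL1A1, was higher in spots with ACTA2. At 16 weeks, 2 of 8 measured genes of the list were at least 2-fold higher in ACTA2-only spots (MFAP5, 1.35, and COL1A2, 1.02) while 2.16% of all genes were, and the list median was 0.76 beside 0.17 for all genes. The summed level of the list was 68.3 per 10000 UMIs (67.3 to 69.3) in spots with neither, 111 (109 to 113) with ACTA2 only and 122 (118 to 126) with both. At 2 weeks it was 110 (109 to 111), 130 (128 to 132) and 276 (271 to 281), and none of 8 genes passed 2-fold in ACTA2-only spots, where 0.886% of all genes did. The level at 2 weeks was thus highest in the spots with both genes, and at 16 weeks the level beside ACTA2 alone was near that beside both. These are levels and not shares of the collagen: at 2 weeks, the spots with both genes held 577 of the 2146 COL1A1 UMIs, and 61 of the 245 spots with 3 or more COL1A1 UMIs had MYH11.

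The genes linked to myofibroblasts differed between sections. Of a list of 13, 9 have a feature of that name here; POSTN, CTHRC1, TNC and ADAM12 have none. In ACTA2-only spots, 1 of 6 measured genes was at least 2-fold higher at 16 weeks (CDH11, a cadherin of fibroblasts, 1.14), none of 4 at 2 weeks and 3 of 5 in the stored healthy section, which were COL11A1 (1.37), CDH11 (1.23) and CCN2 (1.03), while 2.16%, 0.886% and 1.54% of all genes were. In spots with both genes, 2 of 5 measured genes passed 2-fold at 16 weeks, 4 of 4 at 2 weeks and 4 of 5 in the stored healthy section, beside 13.4%, 10.4% and 14.0% of all genes. Between whole sections, 3 of 6 genes were at least 2-fold higher at 2 weeks than in stored healthy muscle and 6 of 7 at 16 weeks, beside 24.2% and 43.9%. At 2 weeks 1 gene was at least 2-fold lower, COL11A1, with 0.037 against 0.100 per 10000 UMIs in stored healthy muscle. In ACTA2-only spots against spots with neither gene, FAP, fibroblast activation protein, had log2 ratios of 0.72 (0.34 to 1.10) at 16 weeks and 0.37 at 2 weeks. The summed level of the list at 16 weeks was 1.91 (1.75 to 2.09) in spots with neither, 3.03 (2.74 to 3.33) with ACTA2 only and 2.90 (2.37 to 3.51) with both.

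Markers of other cells moved with ACTA2 too, and their part in these results was not tested. The endothelial list, of which 8 of 16 genes have a feature here, stood at 2.10 per 10000 UMIs (1.93 to 2.28) in spots with neither, 4.07 (3.73 to 4.42) with ACTA2 only and 6.35 (5.55 to 7.23) with both at 16 weeks. VWF gave most of it, with log2 ratios of 0.32, 0.83, 0.47 and 0.99 in ACTA2-only spots of the 4 sections and 1.24, 1.54, 1.73 and 1.65 in spots with both, while CDH5, the cadherin of endothelial junctions, had 1 to 5 UMIs in each section. The macrophage list, with a feature for each of its 11 genes, stood at 4.17 (3.93 to 4.42), 7.66 (7.20 to 8.15) and 8.55 (7.62 to 9.56) at 16 weeks and at 1.87 (1.69 to 2.07), 2.60 (2.33 to 2.89) and 4.96 (4.32 to 5.66) at 2 weeks.

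None of the 3, 3, 1 and 2 measured pericyte genes of the 4 sections was at least 2-fold higher in ACTA2-only spots. Of all genes, 0.85%, 1.54%, 0.886% and 2.16% were, so a count of 0 is near the background. Some pericyte genes were higher in spots with both genes. The pericyte list, which has 6 of 11 genes here, stood at 1.79 (1.64 to 1.96), 2.17 (1.93 to 2.43) and 2.20 (1.74 to 2.74) in the spots of the 16-week section with neither gene, ACTA2 only and both. ABCC9 had log2 ratios of -0.05, 0.07, 0.00 and 0.13 in the ACTA2-only spots of the 4 sections, whereas HIGD1B had 0.41 and 0.11 in the healthy sections and 0.81 at 16 weeks. In spots with both genes, 2 of 3 measured pericyte genes were at least 2-fold higher in the fresh healthy section, 1 of 3 in the stored healthy, none of 1 at 2 weeks and 1 of 2 at 16 weeks, beside 10.8%, 14.0%, 10.4% and 13.4% of all genes. COX4I2, a cytochrome c oxidase subunit, had 1.86 and 1.73 in the healthy sections, and HIGD1B had 1.19 in fresh healthy muscle, 0.88 in stored healthy muscle and 1.28 at 16 weeks. The list medians in spots with both genes were 1.19, 0.88, 0.02 and 0.55 in the 4 sections, beside 0.23, 0.34, 0.23 and 0.40 for all genes. The 2-week value is that of ABCC9, the only gene measured there, and lay below that of all genes. The mature fiber genes, among them MYH1 and MYH7 of fast and slow fibers, summed to 251 (249 to 253), 226 (223 to 228) and 182 (178 to 187) at 16 weeks and to 580 (577 to 583), 594 (590 to 598) and 560 (553 to 567) at 2 weeks, so every class of spots was rich in fiber RNA.

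The genes whose log level across spots was most like that of each member were named by Pearson's r, over 1950, 2440, 854 and 1726 spots that share their library and vary in depth. MYH11 and ACTA2 were each the closest gene to the other in every section, except that ACTG2 stood before ACTA2 for MYH11 at 2 weeks. Their r was 0.47 in fresh healthy muscle, 0.38 in stored healthy muscle, 0.43 at 2 weeks and 0.32 at 16 weeks, while the median gene had an r of 0.01 to 0.03 with either member. These are weak to moderate values in sparse counts and are given as a description.

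Among the 20 genes closest to MYH11, ACTA2, ACTG2 and MYL9 recurred in all sections, and APP, CALD1, CAVIN3, MGP, SNCG and VIM in 3. For ACTA2, MYH11, ACTG2, APP and FN1 recurred in all, and AEBP1, CAVIN3, COL1A2, COL3A1, MGP, S100A4, SNCG, VIM and VWF in 3. FN1 for fibronectin and COL1A2 and COL3A1 for collagen chains thus recurred for ACTA2 and not, in 3 sections, for MYH11, while MGP, which encodes matrix Gla protein, recurred for both. They were not particular to ACTA2. FN1 was among the 20 for MYH11 in fresh healthy muscle (r 0.26) and at 2 weeks (0.24). COL1A2 (0.27) and COL3A1 (0.24) were among them at 2 weeks. CALD1, the caldesmon gene, binds actin and regulates contraction.

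The 5 closest genes differed between sections in part. In the fresh healthy section, both members had the same 4 next to each other, namely ACTG2 (r 0.44 with each), SNCG, MYL9 and PPP1R14A. In the stored healthy section, ACTA2 was followed by CCL21 (0.31), a chemokine of lymphatic vessels and lymphoid tissue, ACTG2 (0.28), COL1A2 (0.27) and SNCG (0.27), and MYH11 by RERGL (0.30), SNCG (0.28), CCL21 (0.25) and MYL9 (0.24). At 2 weeks, ACTA2 had ACTG2 (0.38), COL1A2 (0.32), CALD1 (0.32) and VIM (0.30), and MYH11 had ACTG2 (0.46), TIMP1 (0.29), COL1A2 (0.27) and CALD1 (0.26). At 16 weeks, ACTA2 had COL4A2 (0.28), CLU (0.27), S100A4 (0.27) and COL1A2 (0.26), with no other smooth muscle gene than MYH11 among the 5, and MYH11 had ACTG2 (0.23), PPP1R14A (0.21), CCL21 (0.21) and APOD (0.17). COL1A1 ranked 1663 among the genes closest to ACTA2 in fresh healthy muscle, 20 in stored healthy muscle, 7 at 2 weeks and 61 at 16 weeks. For MYH11 its ranks were 1362, 55, 19 and 347, so at 2 weeks it was among the 20 closest genes of both.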

How the data were processed

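Rabbit supraspinatus sections, 1 per condition, were frozen in cooled isopentane and measured with the Visium assay. The deposited values are raw UMI counts of spots under tissue, whole numbers that the authors made with Space Ranger (1.2.0) from reads aligned to OryCun2.0 and Ensembl gene models. Position lists carry no barcodes and were not used, so spots were not placed in the tissue.

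All spots were kept. Doublets were not called, because spots may hold several cells. Groups came from the sample labels. Levels are UMIs of a gene per 10000 UMIs. Ratios are log2 after adding 0.5 UMI, and a gene was counted as higher at 2-fold or more with at least 50 UMIs in the pair. The minimum applied to the sum of the pair, so a sparse gene could pass it through the group where it was high. With 1 section per condition no test was run. Sums carry exact Poisson, shares exact binomial (Clopper-Pearson) and ratios exact conditional 95% intervals, which cover counting error only. Shares expected at 1000 UMIs were computed exactly for a draw without replacement, leaving out 266, 93, 53 and 352 shallower spots of the fresh healthy, stored healthy, 2-week and 16-week section. Genes of the mitochondrial genome (37) were found as a run of consecutive identifiers.

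The members, the gene lists and the rules were chosen with earlier results of these data known. Genes were named if they were MYH11, ACTA2, COL1A1, MYH8 or MYL4, members of the 13 lists, or, for each member and section, among the 5 genes with the highest Pearson correlation, or among the first 20 in 3 or more sections. Lists for Schwann cells, adipocytes, TGF-beta signaling and genes shared by smooth and skeletal muscle were also computed. Alternatives covered other minimum counts, a minimum of 500 UMIs per spot, equal depth, totals without mitochondrial genes, setting the median gene to 0 and removal of single spots. The groups with 3 or more COL1A1 or MYH8 UMIs without their richest ACTA2 spot, and the removal of 3 MYH8 spots, were added after seeing the data. Software was numpy 2.4.6, pandas 2.3.3, scipy 1.17.1 and matplotlib 3.10.9 under Python 3.11.15. The ratio intervals were tested on simulated independent counts, and the equal-depth shares against random draws. The real counts were clumped over spots, with a variance of 5.56 to 18.6 times the mean for MYH11 and ACTA2. The simulation did not include this, so intervals between groups of spots can be too narrow.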

Additional observations from a re-analysis of the deposited data

How the results depend on the processing

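With 1 section per condition, depth and the number of spots limit every value, and none of the intervals covers differences between animals. No paired analysis was possible because each condition had 1 section and no test was run. Of 162 values recomputed under alternatives, 95 stayed within their error, 64 moved and 3 reversed. The cause of moves was not tested unless the alternative itself sets it, as a higher minimum or an equal depth does.

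Against the stored healthy section, leaving out mitochondrial genes gave log2 ratios of 1.04 (MYH11) and 0.72 (ACTA2) at 2 weeks and 1.17 and 1.11 at 16 weeks. Setting the median gene to 0 gave 0.83 and 0.51 at 2 weeks, 0.65 and 0.59 at 16 weeks, and -0.20 and 0.065 for the 16-week against the 2-week section. In the order of fresh healthy, stored healthy, 2-week and 16-week section, the share of spots with at least 2 UMIs was 1.85%, 2.38%, 5.97% and 3.36% for MYH11 and 7.03%, 9.96%, 18.0% and 16.2% for ACTA2, and at 1000 UMIs per spot it was 2.46%, 2.37%, 6.46% and 6.94% and 7.41%, 8.31%, 14.9% and 22.1%. The 20 top spots held 50.4%, 40.6%, 52.7% and 45.7% of MYH11 and 44.0%, 24.2%, 44.4% and 23.2% of ACTA2, and the 10 top spots by level 24.1% of MYH11 in the stored healthy section. The gap in ACTA2 share between MYH11 spots and others, 44.6, 35.8, 26.5 and 28.0 percentage points, was 73.8, 59.9, 40.2 and 53.7 with at least 2 MYH11 UMIs.

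The log2 ratio of the balance by COL1A1 moved with the minimum of 3 UMIs to 0.38 at 2 weeks and 1.28 at 16 weeks. Without the richest ACTA2 spot of the group with 3 UMIs it was 0.35 and 1.09. With 5 UMIs it moved to 1.65 at 16 weeks, with an interval of -0.05 to 5.07 that included 0. That value rested on 17 spots with 28 ACTA2 and 2 MYH11 UMIs. By MYH8, 1 UMI gave -0.087 (stored healthy), 0.013 (2 weeks) and -0.30 (16 weeks) and 3 UMIs -0.94, 0.46 and 1.91, the last of opposite sign to -0.30 and resting on 1 MYH11 UMI (interval -0.20 to 7.83). Without the richest spot of those with 3 UMIs, they were -0.050, 1.08 and 1.41. Spots with both MYH8 and MYL4 gave -1.95, 0.69 and 1.01. The fresh healthy section gave no value for these stricter groups, which held under 10 UMIs of the 2 genes.

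In ACTA2-only spots with at least 2 ACTA2 UMIs, the COL1A1 ratio was 1.31, 0.78 and 1.37 in the stored healthy, 2-week and 16-week sections, and 0.48 in stored healthy spots of at least median depth. The MYH8 ratio with at least 2 ACTA2 UMIs was -0.058 (reversed), -0.72, 0.86 and 2.39 in the 4 sections. Without the richest MYH8 spot it was -1.72 in the fresh healthy section (reversed), 0.59 at 2 weeks and 1.12 at 16 weeks, and without the 3 richest -1.12 (reversed), -0.38, 0.62 and 0.19 in the 4 sections.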

Other observations

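SNCG, the gene of gamma-synuclein, which adipocytes and some neurons make, had log2 ratios of 4.68, 3.43, 1.89 and 1.02 in spots with both vessel wall genes against spots with neither, in the order of fresh healthy, stored healthy, 2-week and 16-week section. In ACTA2-only spots the ratios were 1.36, 1.15, 1.27 and 0.29. LPL, the lipoprotein lipase of fat and muscle, stood at 0.41, -0.08, 0.27 and 0.63 in spots with both genes. SNCG was thus tied to the vessel wall genes most in the healthy sections, where it had 216 and 190 UMIs.

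S100B, a calcium-binding protein of Schwann cells, had ratios of 1.76, 0.95 and 1.0 in spots with both genes of the stored healthy, 2-week and 16-week sections, and 0.49, 0.42 and 0.20 in ACTA2-only spots. Of the TGF-beta and serum response genes, none of 3 measured passed 2-fold in ACTA2-only spots of any section, where 0.85%, 1.54%, 0.886% and 2.16% of all genes did, so that a count of 0 is near the background. In spots with both genes, 1 of 3 passed in fresh healthy muscle, beside 10.8% of all genes, and none of 3, 2 and 2 in the other sections. In ACTA2-only spots, TGFB3 had 0.13, 0.08, 0.48 and 0.40 in the 4 sections. Of genes shared by smooth and skeletal muscle, CALD1 was at least 2-fold higher in spots with both genes of every section, with 1.80, 1.38, 1.72 and 1.35, whereas DES, the desmin gene, stood at 0.04, -0.04, -0.44 and -0.87.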
